A study of Mus musculus with 12 samples.

Results

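The cecum 72 h after cauterization was compared with the cecum of sham-operated mice on 6 of the 12 microarrays of the series, 3 arrays in each group, chosen by the treatment label alone. In this mouse model of postsurgical adhesions the cecal wall is burned with bipolar forceps through a midline incision, and fibrous bands then form at the injured serosa. The other 6 arrays hold ceca taken at 3 h and at 12 h, 3 of each. The labels give male mice and cecum for every array, and the study's methods list C57BL/6 mice without naming the strain used for the arrays, while its text calls the samples of a group biological replicates. No age is given, and the sham tissue was taken at 0 h according to the methods, so time after anaesthesia and incision and the burn itself cannot be told apart in this comparison. How much wall beyond the burn was taken with each injured cecum is not given in the sources used here, and in bulk tissue fewer cells of a type and less RNA per cell cannot be told apart.

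A wound of the gut wall passes from clotting and an influx of neutrophils to the entry of monocytes and then to a phase in which fibroblasts lay down collagen. Collagen chains are hydroxylated and folded inside the cell, trimmed outside it and crosslinked by lysyl oxidases. The outer face of the cecum is covered by mesothelium, a layer of flat cells that makes activators and inhibitors of fibrinolysis, while its inner face is a colonic type of epithelium that absorbs salt, water and short-chain fatty acids.

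Signal intensity of 56605 probes for 37074 gene names was read from each array on the log2 scale, with the array's 75th percentile set to 0, so a value of 1 is a signal 2 times that percentile. Where a gene has several probes, the brightest on average stands for it. Between 62.2% and 65.2% of probes were well above background on the 6 arrays, and replicate arrays correlated at 0.990 to 0.992 in sham and at 0.985 to 0.991 at 72 h, against 0.969 to 0.979 between the groups. The epithelial genes Vil1, Muc2 and Slc26a3, the smooth muscle genes Myh11, Actg2 and Des and the neuronal gene Elavl4 were well above background on 6 of 6 arrays, as were the small intestinal genes Fabp6 and Defa24 and gastric Atp4a. Small intestinal Apoa4 and pancreatic Prss2 were so on 0 of 6, and pancreatic Cpa1 and Amy2a5 on 1 and 2. The liver genes Alb, Ttr and Apoa2 were so on 6 of 6, and gastric Gkn1 on 3 of 3 sham arrays and 0 of 3 at 72 h. The sex labels were not borne out: Xist, the RNA of the inactive X chromosome in females, was well above background on 6 of 6 arrays, and the Y-linked genes Ddx3y and Eif2s3y were so on 0 of 6, Uty on 1 and Kdm5d on 6. The groups are therefore described by treatment and no use is made of sex. All 3 sham arrays lay on 1 slide and all 3 arrays of 72 h on another, so slide and group coincide here, and the slide could be fitted only through the 12 h group, which had 2 arrays on the sham slide and 1 on the other. That fit made the median standard error 1.81 times larger, and its counts are given below with the lists, with single genes' results for some of the genes named.

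At 72 h 3282 genes, 8.85% of those tested, were called, differing by over 2-fold at an adjusted p under 0.05 in limma, 1687 of them higher (4.55%) and 1595 lower (4.3%). The rises were the larger changes: 256 genes rose and 44 fell by more than 8-fold. Among the 46 gene lists the highest medians belonged to neutrophil markers, fibrillar collagens and acute phase genes, and the lowest to type I interferon responsive, B cell, smooth muscle, xenobiotic and colonocyte fuel genes. Of the genes that rose, 346 were not well above background on any sham array, and of those that fell 572 were not so on any 72 h array. For such genes the fold is given as a bound, "at least", set by the lowest signal among probes well above background, with the fitted log2 difference left out. The median log2 difference over all genes was -0.14. The share of called genes that were higher was 51.4%, and it was 64.3% with the median of all probes as the scale, 62.8% after quantile normalization, 69.2% with normexp background correction, 81.1% when the fold threshold was tested with treat and 38.5% with no fold threshold. Leaving out sham replicate 3 turned the balance to 1573 genes higher and 1721 lower. The fit that blocks on slide called 591 genes higher (1.59%) and 561 lower (1.51%), and 790 of the 3282 genes were called in both fits, 529 higher and 261 lower. The sign of the difference was kept in 3259 of them.

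**Figure D1:**
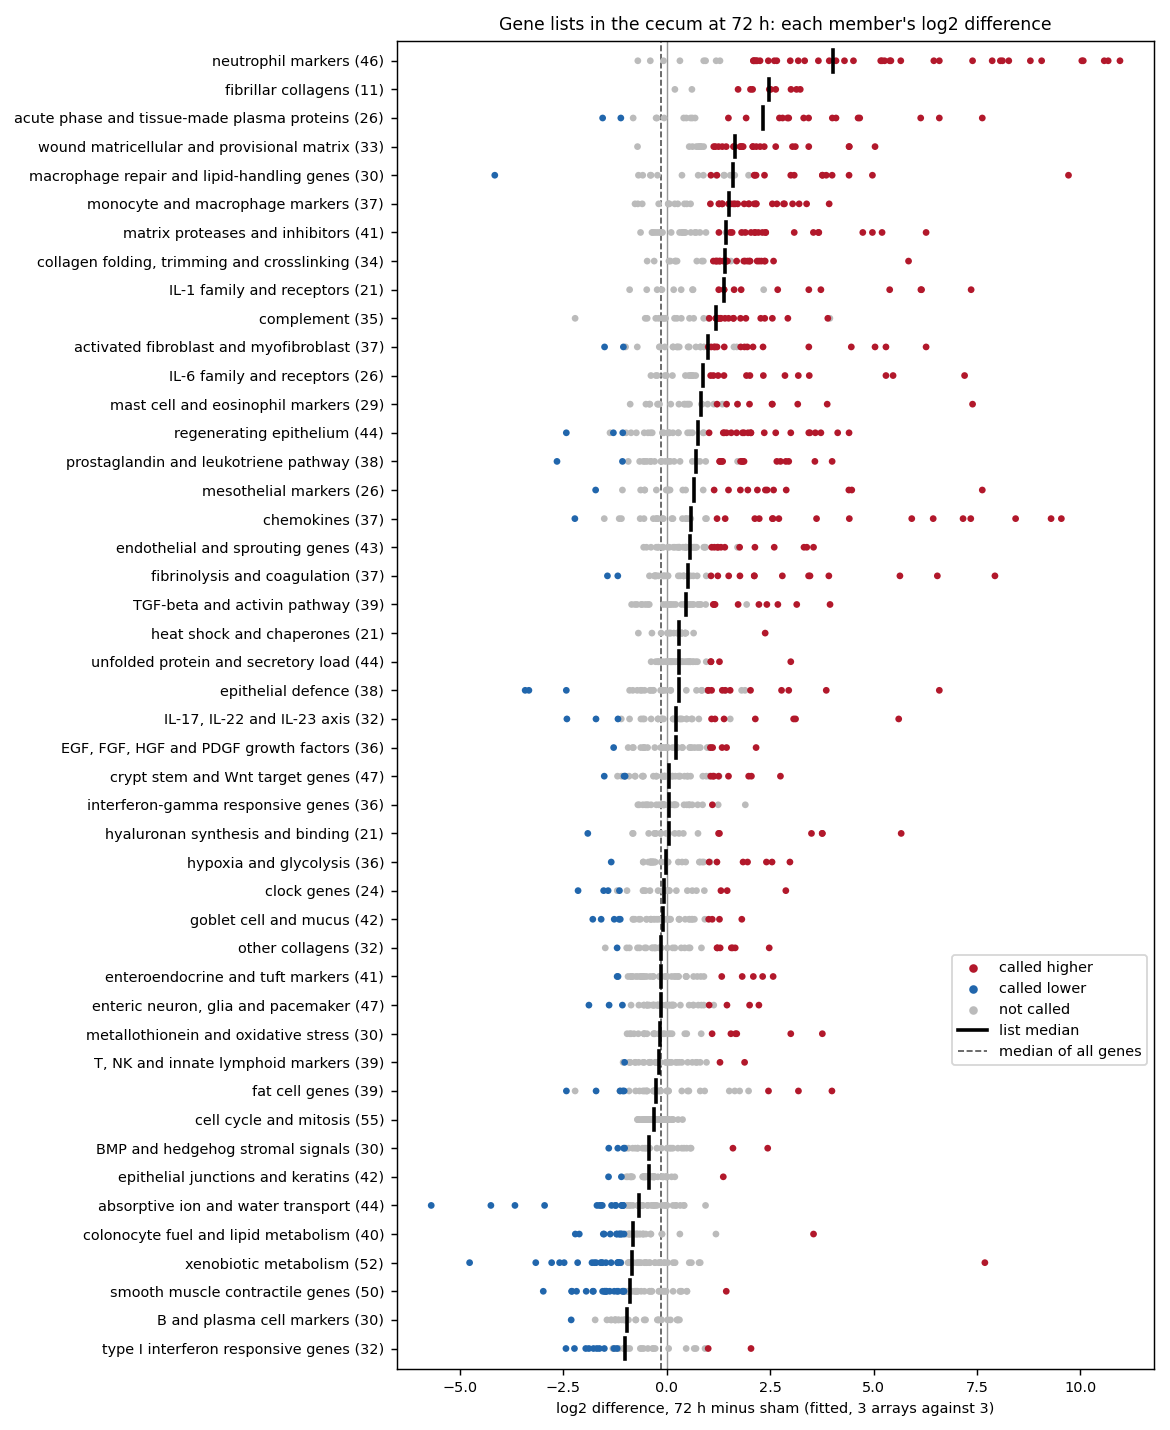
Log2 difference between 72 h and sham (x axis, from 3 arrays against 3) of every measured member of 46 gene lists (y axis, number of members in brackets), with genes called higher in red, called lower in blue and not called in grey, a black bar at each list's median and a dashed line at the median of all genes. Neutrophil markers, with a median of 4.01, lie farthest to the right, and type I interferon responsive genes, with a median of -1.0, farthest to the left.

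Transcripts of the fibrillar collagens, which form the rope-like fibres of scar tissue, were higher at 72 h. Of 11 measured chains 9 rose and 0 fell, with a median log2 difference of 2.48. Col1a1, one of the chains of type I collagen, measured 3.95, 3.88 and 3.96 in sham and 7.58, 6.95 and 6.27 at 72 h. The groups did not overlap, a separation that 12.7% of all genes showed upwards and 24.9% downwards. Its rise was 8.02-fold (log2 difference 3.00, SE 0.26, limma adjusted p = 7.71e-05), and its 4 probes gave log2 differences between 0.52 and 3.33. Col1a2, its partner chain, measured 5.71, 5.80 and 5.69 in sham and 8.50, 7.73 and 7.05 at 72 h, a 4.07-fold rise (SE 0.29 on the log2 scale, limma adjusted p = 0.00127). Col3a1, the type III chain of early granulation tissue, measured 4.96, 4.98 and 4.92 in sham against 7.58, 7.11 and 6.39, a 4.21-fold rise (SE 0.28, limma adjusted p = 0.000896). Col5a1, which sets fibre diameter, rose 5.70-fold and Col24a1 rose by 3.23 on the log2 scale, the latter from a level well above background on 1 of 3 sham arrays. In each of Col1a1, Col1a2, Col3a1 and Col5a1 the 72 h arrays stood in the same order, with replicate 1 highest and replicate 3 lowest, while the sham values lay close together. Blocking on slide, 2 of the 11 chains were called, Col1a1 and Col24a1, and Col1a2 (adjusted p = 0.0798) and Col3a1 (adjusted p = 0.108) were not.

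Of the 32 remaining collagens measured, 7 rose and 1 fell, and the median was -0.14. Col8a1, a short-chain collagen of vessel walls and wounds, measured 0.23, 0.07 and -0.04 in sham and 2.86, 2.66 and 2.17 at 72 h, a 5.57-fold rise (SE 0.23, limma adjusted p = 0.000106). Col12a1, which coats fibrillar collagen, rose 3.01-fold, from values between -0.39 and -0.28 to 2.30, 1.0 and 0.50, though its 4 probes ranged from -0.54 to 1.59. Col6a1, of the pericellular beaded filaments, measured 4.68, 4.66 and 4.61 in sham and 5.72, 4.90 and 4.62 at 72 h, overlapping groups (log2 difference 0.43, limma adjusted p = 0.233). Leaving out 72 h replicate 1 brought the count of risen members from 7 to 4, and slide as a block to 3.

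Collagen processing genes rose together with the chains, with 23 of 34 measured higher, 0 lower and a median of 1.40 (1.33 with bounds). Lox, the lysyl oxidase that starts collagen crosslinks, measured -2.0, -2.70 and -2.61 in sham and 4.42, 2.97 and 2.83 at 72 h. Every 72 h array stood more than 4 log2 units above every sham array. This was a 57.5-fold rise (SE 0.38, limma adjusted p = 1.74e-05), and it was called with slide as a block as well (log2 difference 5.35, adjusted p = 0.00634). Loxl2, of the same enzyme family, rose 4.88-fold and Plod2, the lysyl hydroxylase that prepares the crosslink sites, 5.99-fold. Serpinh1, the collagen chaperone HSP47, measured 2.67, 2.74 and 2.85 in sham and 5.90, 4.84 and 4.65 at 72 h, a 5.20-fold rise (limma adjusted p = 0.000446). P4ha3, a prolyl hydroxylase subunit, rose 3.22-fold (limma adjusted p = 0.0441), with 72 h replicate 1 at -1.36 against -3.42 and -3.63 in the others, and it was not called without 72 h replicate 1 (log2 difference 0.97) or without any 1 sham array (1.65 to 1.72). Blocking on slide, 6 of the 34 were called, all higher.

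Matricellular and provisional matrix genes, the adhesive proteins that fill a fresh wound, were also higher: 23 of 33 rose, 0 fell and the median was 1.65. Cthrc1, a secreted protein of collagen-making fibroblasts, measured -3.34, -3.22 and -3.55 in sham and 3.02, 1.24 and 0.73 at 72 h. The groups stood far apart, the 72 h arrays again in the order of the collagens, for a 32.8-fold rise (SE 0.50, limma adjusted p = 0.000165), although its second probe gave -0.13. Spp1, osteopontin, rose 21.2-fold from -0.78, -1.25 and 0.84 to 4.68, 3.81 and 3.55, and Emilin2, of the elastin microfibril interface, 21.3-fold from 0.07, 0.07 and 0.25 to 4.80, 4.05 and 4.77. Thbs1, thrombospondin 1, rose 10.8-fold, Tnc, tenascin C, 3.60-fold and Fn1, fibronectin, 3.06-fold. Postn, periostin, measured 3.10, 2.95 and 2.72 in sham and 3.88, 3.52 and 2.99 at 72 h and was not called (log2 difference 0.54, limma adjusted p = 0.0935). When slide was a block, 12 of the 33 were called, all higher, among them Cthrc1, Spp1, Emilin2, Thbs1, Tnc and Fn1.

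Matrix proteases and their inhibitors included 20 of 41 members that rose and 0 that fell, with a median of 1.43. Of these 41, 9 were called higher when slide was a block, and Mmp8 (adjusted p = 0.0525) was not. Timp1, the tissue inhibitor of metalloproteinases, measured -0.61, -0.21 and 0.64 in sham and 6.68, 5.77 and 6.17 at 72 h, a 77.2-fold rise (SE 0.35, limma adjusted p = 8.45e-06). The stromelysin Mmp10 rose 26.7-fold, from -4.61, -4.23 and -2.98 to 0.52, 0.81 and 1.06. Mmp12, the macrophage elastase, measured -6.19, -5.71 and -4.60 in sham, well above background on 1 of 3 arrays, and -0.64, -0.12 and -0.83 at 72 h. It was called higher (limma adjusted p = 3.17e-05), and no fold is given because most of its sham values were not above background. Mmp8, the neutrophil collagenase, rose 36.9-fold, with 72 h values of 0.25, -0.51 and 2.86. Mmp13, a collagenase, rose 2.40-fold. Mmp3, stromelysin 1, was not called: sham replicate 3 stood at 1.09, within the 72 h range of 1.03 to 1.53, and the other sham arrays at -1.60 and -1.07. Without sham replicate 3 it was called (log2 difference 2.66).

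Fibrinolysis and coagulation genes, which decide whether fibrin between surfaces is dissolved, rose in 13 of 37 cases and fell in 2, with a median of 0.51. Serpinb2, an inhibitor of plasminogen activators, was well above background on 0 of 3 sham arrays and on 3 of 3 at 72 h, where it measured 1.78, 1.25 and 1.96, at least 102-fold higher (limma adjusted p = 7.05e-05). Among the activators, Plat (tPA) rose 4.34-fold, from -2.19, -2.22 and -2.07 to 0.62, -0.38 and -0.36, while Plau (uPA) measured 1.55, 1.64 and 1.66 in sham and 2.21, 1.99 and 1.64 at 72 h and was not called (limma adjusted p = 0.376). Plaur, the receptor of uPA, rose 11-fold. F10, coagulation factor X, rose 93.2-fold from a signal well above background on 2 of 3 sham arrays. When slide was a block, Serpinb2, Plat, Plaur and F10 were all called, as were 11 of the 37 in all, each of them higher.

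Of 21 genes of hyaluronan, a space-filling sugar polymer of loose matrix, 6 rose and 1 fell, with a median of 0.04 (5 and 0 with slide as a block). The synthases Has1 and Has2 rose 13.5-fold and 13.6-fold. Has1 was the more scattered, at 0.75, -0.84 and -2.45 at 72 h after sham values of -4.35, -4.98 and -4.47, of which 2 of 3 were well above background, and its second probe gave -0.42. Has2 measured 0.73, 0.14 and -0.69 after -3.72, -4.0 and -3.38. Tnfaip6 (TSG-6), which links hyaluronan to heavy chains, measured -2.95, -2.99 and -2.97 in sham and 0.94, 0.24 and 0.41 at 72 h, an 11.3-fold rise (SE 0.26, limma adjusted p = 3.07e-05). Ptx3, a pentraxin that joins this matrix, was at least 19.2-fold higher.

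In the TGF-beta and activin pathway, the main inducer of scar matrix, 9 of 39 members rose and 0 fell, with a median of 0.47, and 4 rose with slide as a block. Among the ligands, Tgfb1 measured -1.04, -1.47 and -0.94 in sham and 0.02, -0.12 and 0.08 at 72 h, a 2.21-fold rise (SE 0.18, limma adjusted p = 0.0021; adjusted p = 0.106 with slide as a block), and without sham replicate 2 it stood just under the fold threshold (log2 difference 0.98). Tgfb2 and Tgfb3 had log2 differences of 0.43 and 0.65 and were not called. Inhba, which encodes the activin A subunit, measured -1.81, -1.80 and -1.67 against 2.60, 2.0 and 1.97, a 15.4-fold rise (SE 0.29, limma adjusted p = 3.21e-05), called with slide as a block too. Grem1, a secreted BMP antagonist of the muscle layer and its fibroblasts, rose 8.83-fold. The BMP and hedgehog list, signals that pattern the stroma, had 2 members higher and 4 lower of 30 with a median of -0.42 (0 and 3 with slide as a block). Ptch1, the hedgehog receptor and a target of its own pathway, fell from -0.63, -0.89 and -0.84 to -2.23, -2.11 and -2.22, a 2.64-fold fall (SE 0.24, limma adjusted p = 0.00337). Gli1, a transcription factor and target of the same pathway, measured 1.37, 0.99 and 1.34 in sham and 0.19, 0.40 and 0.15 at 72 h, a 1.98-fold difference that stayed just under the fold threshold (limma adjusted p = 0.0026). It passed without sham replicate 2 (log2 difference -1.11) or 72 h replicate 2 (-1.06) and with slide as a block (-1.38, adjusted p = 0.0286).

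Genes of activated fibroblasts and myofibroblasts were divided, with 16 of 37 higher, 2 lower and a median of 0.99 (8 higher and 3 lower with slide as a block). Il11, a cytokine of activated fibroblasts, measured -3.60, -3.70 and -3.49 in sham and 2.01, 1.95 and 1.16 at 72 h, a 39.4-fold rise (SE 0.37, limma adjusted p = 2.46e-05). Acta2, the smooth muscle actin that marks myofibroblasts and the muscle coat alike, measured 7.23, 7.26 and 7.10 in sham and 6.09, 6.18 and 6.32 at 72 h. Every 72 h array lay below every sham array, but the 1.99-fold difference was under the fold threshold (limma adjusted p = 0.00869). It passed without sham replicate 3 (log2 difference -1.05), without 72 h replicate 3 (-1.06) and with slide as a block (-1.79, adjusted p = 0.00674). Tagln and Tpm2, contractile proteins of both cell types, were the 2 members that fell, 2.07-fold and 2.84-fold, Tagln falling under the fold threshold without 72 h replicate 1 (log2 difference -0.95). Fap, fibroblast activation protein, and Pdgfra, the fibroblast receptor for PDGF, were not called, with log2 differences of 0.81 and 0.82, though Fap was called without sham replicate 1 (1.02) or 72 h replicate 3 (1.12).

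Of 26 mesothelial genes 12 rose and 1 fell, with a median of 0.67, and with slide as a block 6 rose and 0 fell. Wt1, a transcription factor of mesothelial cells, measured -2.50, -2.32 and -2.68 in sham and 3.03, 1.47 and 1.20 at 72 h, a 21.1-fold rise (SE 0.58, limma adjusted p = 0.000787; adjusted p = 0.129 with slide as a block). Pdpn, podoplanin, which also marks lymphatic vessels and activated fibroblasts, measured 1.53, 1.43 and 1.82 in sham and 4.32, 4.13 and 4.08 at 72 h, a 5.99-fold rise (SE 0.13, limma adjusted p = 6.09e-06), called with slide as a block. The uroplakin Upk1b rose 3.43-fold, and Tbx18, a transcription factor of the embryonic mesothelium, was at least 6.07-fold higher, at -0.69, -2.29 and -4.27 at 72 h. Hp, haptoglobin, is listed here and with the acute phase genes and rose 198-fold. Msln, mesothelin, measured 1.09, 0.54 and 1.13 in sham and 1.47, 0.55 and 0.87 at 72 h, with a standard error of 1.40 in the fit that pools all 4 groups, and was not called. Calb2, calretinin, a marker of mesothelium and of enteric neurons, fell 3.29-fold to a signal well above background on 1 of 3 arrays.

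**Figure D2:**
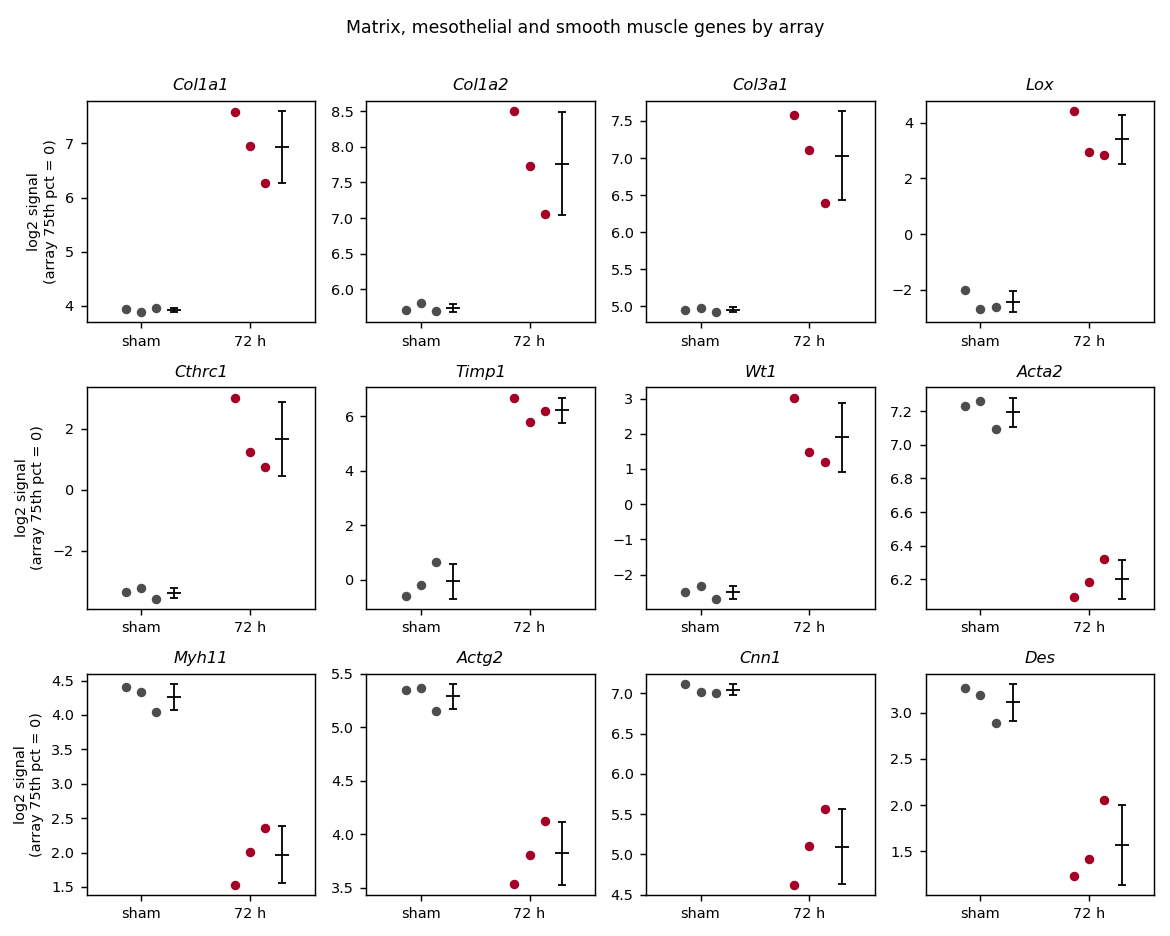
Log2 signal (y axis, the array's 75th percentile at 0) of 12 matrix, mesothelial and smooth muscle genes on the 3 sham and 3 72 h arrays, 1 point an array, with the group mean and SD as a black bar beside the points. Col1a1, Lox, Cthrc1, Timp1 and Wt1 stand higher at 72 h and Acta2, Myh11, Actg2, Cnn1 and Des lower, with no overlap of the groups in any of the 12 panels.

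Smooth muscle contractile genes, of which the muscle coat of the cecum is the main source, were lower: 20 of 50 fell, 1 rose and the median was -0.89. The list's summed signal was between 1210 and 1332 times the 75th percentile in sham and between 586.7 and 701.9 at 72 h. Myh11, the smooth muscle myosin heavy chain, measured 4.41, 4.33 and 4.04 in sham and 1.53, 2.01 and 2.36 at 72 h. The groups were more than 1 log2 unit apart at their nearest, and the fall was 4.90-fold (SE 0.24, limma adjusted p = 0.00022), with all 4 of its probes between -2.80 and -1.72. Cnn1, calponin, fell 3.86-fold from 7.12, 7.01 and 7.0 to 4.62, 5.11 and 5.56. Des, desmin, fell 2.93-fold and Actg2, the enteric actin, 2.77-fold. The largest fall in the list was that of Ckm, muscle creatine kinase, 7.92-fold, from -0.92, -0.93 and -1.42 to -4.49, -4.35 and -3.39. Chrm2, the muscarinic receptor of the muscle coat, fell 4.92-fold. With slide as a block 22 of the 50 were called lower and 0 higher. Myh11, Cnn1, Des, Actg2, Ckm and Chrm2 were among the 22. The slide term rests on the 12 h arrays, whose summed signal was 511.6 and 502.3 on the sham slide and 717.8 on the other. That fit therefore cannot separate the slide from the scatter of the 12 h arrays, and the part of the slide in the fall was not tested.

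Neutrophil genes had the highest median of the 46 lists, 4.01 (3.80 with genes measured in 1 group alone set at their bound), with 37 of 46 higher and 0 lower, and with a summed signal of 128.5 to 145.4 times the 75th percentile in sham and 571.6 to 1329 at 72 h. S100a9, a calgranulin packed into neutrophil cytosol, measured -3.02, -1.85 and -0.88 in sham and 8.11, 7.79 and 8.55 at 72 h. This was the largest rise of any gene well above background on all 6 arrays, 1070-fold (SE 0.45, limma adjusted p = 4.62e-06). Its partner S100a8, well above background on 2 of 3 sham arrays, rose from -5.60, -4.85 and -3.13 to 6.20, 5.70 and 7.40. For both calgranulins sham replicate 3 was the highest of the sham arrays. The stefin A genes Stfa2l1 and Stfa1, protease inhibitors of granulocytes, were at least 551-fold and at least 355-fold higher and share closely similar sequences, so their probes may read each other's transcripts. Cxcr2, the receptor that draws neutrophils to chemokines, was at least 125-fold higher at 72 h, at 2.33, 1.58 and 1.94. Clec4d, a C-type lectin of myeloid cells, rose 308-fold, and Hdc, histidine decarboxylase, found in neutrophils, basophils and mast cells, 168-fold. Ly6g, the surface antigen by which neutrophils are sorted, was different: it measured -0.26, 1.11 and 2.52 in sham and 0.84, 0.64 and 1.66 at 72 h, overlapping groups with a log2 difference of -0.08 (limma adjusted p = 0.931). The slide-blocked fit called 27 of the 46, all higher.

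Chemokines, the attractants of these cells, rose in 16 of 37 cases and fell in 1, with a median of 0.58. The neutrophil attractants led: Cxcl5 measured -4.61, -4.08 and -3.43 in sham and 4.99, 4.14 and 4.06 at 72 h, a 346-fold rise (SE 0.33, limma adjusted p = 4.62e-06). Cxcl1 rose 143-fold, from -3.88, -3.32 and -2.43 to 4.19, 3.64 and 4.03. Cxcl2 and Cxcl3, well above background on 0 of 3 sham arrays, were at least 278-fold and at least 149-fold higher. Of the monocyte attractants, Ccl2 rose 21.3-fold and Ccl7 12.3-fold, and Ccl3, made by activated myeloid cells, rose 163-fold. Cxcl12, a constitutive attractant of stromal cells, measured 2.91, 2.97 and 2.88 in sham and 4.58, 3.85 and 3.13 at 72 h and did not pass the test (log2 difference 0.94, limma adjusted p = 0.05), though it did without 72 h replicate 3 (1.30). Ccl17, a dendritic cell product that draws T cells, fell 4.66-fold, from -1.12, -0.19 and 1.06 to -2.24, -1.94 and -2.75. The slide-blocked fit called 15 of the 37, all higher.

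The sequences before the starts of Cxcl1, Cxcl2 and Il6 are shown as examples of raised cytokine genes, picked after their values were seen, for holding the letters searched for here. RefSeq start windows of build GRCm38.p6 were found for 27 of the 37 chemokines and 20 of the 26 IL-6 family genes, and were searched on both strands, in the 250 bases before each start, for GGGA, any 2 bases and TTCC, letters of a kappa-B site, the kind of site that NF-kappa-B binds. These letters occurred in 5 of the 27 chemokine genes and 1 of the 20 IL-6 family genes, against 368 of 27025 genes with a window (1.36%). Of the 5 chemokine genes 3 rose (Cxcl1, Cxcl2 and Cxcl3) and 2 were not called. The windows of Cxcl1 (chr5:90890995-90891244, plus strand), Cxcl2 (chr5:90903649-90903898, plus strand) and Il6 (chr5:30012864-30013113, plus strand) follow, 5′ to 3′, with the matches in capitals. In Cxcl1 and Cxcl2 the run in capitals is a pair of overlapping matches, 1 on each strand, and the runs end 60, 86 and 34 bases before the starts of Cxcl1, Cxcl2 and Il6.
Cxcl1: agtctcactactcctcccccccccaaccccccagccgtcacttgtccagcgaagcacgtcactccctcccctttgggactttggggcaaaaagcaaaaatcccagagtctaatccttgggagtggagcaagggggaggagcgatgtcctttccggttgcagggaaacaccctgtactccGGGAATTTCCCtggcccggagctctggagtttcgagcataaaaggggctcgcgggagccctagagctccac
Cxcl2: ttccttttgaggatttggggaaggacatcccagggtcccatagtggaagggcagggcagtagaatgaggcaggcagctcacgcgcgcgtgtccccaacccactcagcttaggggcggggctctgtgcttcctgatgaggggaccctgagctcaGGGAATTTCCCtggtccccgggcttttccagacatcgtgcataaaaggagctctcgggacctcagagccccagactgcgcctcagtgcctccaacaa
Il6: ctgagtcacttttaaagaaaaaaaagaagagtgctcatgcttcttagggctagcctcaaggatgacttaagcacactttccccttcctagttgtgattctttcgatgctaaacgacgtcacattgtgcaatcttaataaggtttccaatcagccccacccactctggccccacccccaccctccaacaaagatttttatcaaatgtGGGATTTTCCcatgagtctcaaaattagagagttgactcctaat
A match is a run of letters and no measurement of binding, and whether matches and rises go together was not tested.

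In the IL-6 family, whose receptors act through STAT3, 13 of 26 members rose and 0 fell, with a median of 0.88, and 8 rose with slide as a block. Il6 measured -4.35, -5.0 and -4.62 in sham and 3.07, 2.18 and 2.37 at 72 h. No array of a group came within 6 log2 units of the other group, and the rise was 147-fold (SE 0.45, limma adjusted p = 1.35e-05; log2 difference 8.92, adjusted p = 8.14e-05 with slide as a block). Osm, oncostatin M, a product of neutrophils and macrophages, rose 44.4-fold, from -3.25, -3.45 and -2.81 to 2.69, 2.19 and 2.02. The IL-1 family had 12 of 21 members higher and 0 lower, with a median of 1.38 (7 higher with slide as a block). Il1b measured -1.80, -1.64 and -0.50 in sham and 5.91, 5.62 and 6.59 at 72 h, a 164-fold rise (SE 0.41, limma adjusted p = 8.45e-06). Il1a and Il1f9, well above background on 0 of 3 sham arrays, were at least 18.5-fold and at least 14.8-fold higher, and Il33, an alarmin of stromal and epithelial nuclei, rose 10.8-fold. Il1rn, the antagonist of the IL-1 receptor, rose 13.2-fold, from -1.66, -1.41 and 0.38 to 2.06, 2.67 and 3.75. Tnf, outside both lists, rose 6.10-fold, from -2.42, -2.53 and -2.18 to -0.22, -0.30 and 1.21 (SE 0.47, limma adjusted p = 0.0039; adjusted p = 0.113 with slide as a block). Among the IL-17, IL-22 and IL-23 genes, which act on epithelium and call in neutrophils, 7 of 32 rose and 3 fell (3 and 0 with slide as a block), and Il17a was at least 12.8-fold higher at -1.31, -1.0 and -1.71.

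Monocyte and macrophage genes rose in 25 of 37 cases and fell in 0, with a median of 1.51. Adgre1, which encodes F4/80, measured 0.52, 0.61 and 0.62 in sham and 2.85, 3.40 and 3.49 at 72 h, a 6.33-fold rise (SE 0.21, limma adjusted p = 4.76e-05). Csf1r, the receptor on which macrophages depend, was tightly grouped at 4.23, 4.25 and 4.26 in sham and 5.74, 5.80 and 5.74 at 72 h, a 2.85-fold rise (SE 0.11, limma adjusted p = 2.46e-05). Ccr2, the receptor for Ccl2 on inflammatory monocytes, rose 10.4-fold, Cd68 3.94-fold and the scavenger receptor Marco 15.2-fold. Cx3cr1, high on resident macrophages, measured 1.98, 1.78 and 1.81 in sham and 2.06, 2.66 and 2.58 at 72 h and was not called (limma adjusted p = 0.133). Adgre1, Csf1r, Ccr2, Cd68 and Marco were also called with slide as a block, as were 17 of the 37 members.

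Macrophage genes of repair and lipid handling rose in 15 of 30 cases and fell in 1, with a median of 1.59, and with slide as a block 7 rose and 0 fell. Arg1, arginase 1, was well above background on 0 of 3 sham arrays and measured 2.69, 2.82 and 4.12 at 72 h, at least 300-fold higher (limma adjusted p = 4.62e-06). Trem2, a lipid-sensing receptor, measured -1.06, -0.97 and -1.36 in sham and 3.36, 2.42 and 2.13 at 72 h, a 13.6-fold rise (SE 0.28, limma adjusted p = 3.07e-05). Chil3 rose 5.14-fold (limma adjusted p = 0.046), with 72 h values of -1.03, -1.75 and 1.77, and was not called without 72 h replicate 1 or any 1 sham array. Gpnmb, of lipid-laden macrophages, was not called (log2 difference 0.89, limma adjusted p = 0.244). The exception in direction was Retnla, which encodes FIZZ1 and is induced by IL-4 in macrophages: it measured 3.06, 2.74 and 2.18 in sham and -1.19, -0.28 and -3.02 at 72 h, a 17.8-fold fall (SE 0.58, limma adjusted p = 0.00115; adjusted p = 0.112 with slide as a block). Arg1 and Chil3 are induced by IL-4 as well.

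Calls among lymphocyte genes were few, and of all genes 4.55% were called higher and 4.3% lower. Of 39 T, NK and innate lymphoid genes 2 rose (5.13%) and 1 fell (2.56%), with a median of -0.18. The 2 that rose were the granzymes Gzmb (3.69-fold) and Gzma (2.44-fold), the latter not called without sham replicate 2 or 72 h replicate 1. Cd3e, a chain of the T cell receptor complex, measured 1.48, 1.19 and 1.72 in sham and 0.67, 1.25 and 1.24 at 72 h, Cd8a was between -3.62 and -3.21 and between -4.40 and -3.54, and Nkg7 between -0.77 and -0.55 and between -1.05 and -0.65, none of them called. Among 30 B and plasma cell genes 0 rose and 1 fell (3.33%), while the median was -0.96. The count that fell was 0 without sham replicate 1, sham replicate 3, 72 h replicate 1 or 72 h replicate 2. Ms4a1, which encodes the B cell surface protein CD20, was lower on every 72 h array than on any sham array, at 0.24, 1.31 and 1.69 against 2.59, 1.72 and 2.65. Its standard error in the fit that pools all 4 groups was 1.01, and it was not called. The 3 h arrays were the most scattered for this gene (SD 2.56, against 0.52 in sham and 0.75 at 72 h). With slide as a block no gene of either lymphocyte list was called. Of 29 mast cell and eosinophil genes 9 rose and 0 fell, 7 of 29 rising in the slide-blocked fit. The largest rise was that of Hdc, given above with the neutrophil genes, and 6 of the 29 are also on other lists. Tpsab1, a mast cell tryptase, was at least 4.03-fold higher and Cpa3, the mast cell carboxypeptidase, rose 3.27-fold, a call lost without any 1 array but 72 h replicate 3, whereas Mcpt1, the protease of mucosal mast cells, measured -0.45, -0.49 and -0.42 in sham and -0.35, -0.32 and -0.41 at 72 h (limma adjusted p = 0.779).

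Interferon-gamma responsive genes stood at a median of 0.05, with 1 of 36 higher, Gbp2, a guanylate-binding protein (2.15-fold), and 0 lower. Gbp2 was not called when any 1 array other than 72 h replicate 2 was left out, nor with slide as a block. Ifng itself was well above background on 0 of 3 sham arrays and on 2 of 3 at 72 h, and was not called (limma adjusted p = 0.119; called without 72 h replicate 3). Ciita, the master regulator of MHC class II genes, measured 2.80, 2.34 and 2.99 in sham and 1.85, 2.13 and 2.06 at 72 h and was not called. Of the type I interferon responsive genes, an antiviral set switched on by the interferon receptor, 10 of 32 fell and 2 rose, with a median of -1.0. Ifit1, which binds foreign RNA caps, measured 2.17, 1.60 and 2.47 in sham and -0.30, -0.92 and 0.14 at 72 h. All 3 values at 72 h were below all 3 in sham, and the fall was 5.42-fold (SE 0.44, limma adjusted p = 0.0039). Usp18, a brake on interferon signalling, fell 4.70-fold, from 1.02, 0.99 and 2.11 to -0.89, -1.16 and -0.52, and Mx2, a dynamin-like antiviral GTPase, 3.89-fold. Isg15 and Mx1 were not called, with log2 differences of -1.25 and -0.64, while the membrane proteins Ifitm1 and Ifitm3, the 2 members that rose, were 4.10-fold and 2.0-fold higher, Ifitm3 losing its call without sham replicate 1, 72 h replicate 1 or 72 h replicate 3. Against sham, 5 of the list's members were called lower when 72 h replicate 1, 72 h replicate 2 or sham replicate 3 was left out, 6 without sham replicate 1, and 0 were called in either direction with slide as a block.

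The start windows of 3 interferon-responsive genes that fell are shown because 10 of the 32 members fell against sham. Windows were found for 23 of its 32 members and were searched in the same way for GAAA, any 2 bases and GAAA, the core of the interferon-stimulated response element. It occurred in 10 of the 23, of which 5 fell, and in 936 of all 27025 genes with a window (3.46%). The list was made of genes known to respond to interferon, and whether motif and fall go together was not tested. Ifit1 (chr19:34640639-34640888, plus strand) and Ifit3 (chr19:34583279-34583528, plus strand) have 2 matches each and Oas3 (chr5:120777660-120777909, minus strand) has 1, again in capitals, and none of these 3 windows holds the kappa-B letters. Ifit3 and Oas3 were picked after their values were seen, for holding the motif. Ifit3, a partner of Ifit1, fell 3.09-fold and Oas3, an oligoadenylate synthetase, 3.23-fold, and neither was called without sham replicate 1, sham replicate 3, 72 h replicate 1 or 72 h replicate 2, nor Oas3 without sham replicate 2.
Ifit1: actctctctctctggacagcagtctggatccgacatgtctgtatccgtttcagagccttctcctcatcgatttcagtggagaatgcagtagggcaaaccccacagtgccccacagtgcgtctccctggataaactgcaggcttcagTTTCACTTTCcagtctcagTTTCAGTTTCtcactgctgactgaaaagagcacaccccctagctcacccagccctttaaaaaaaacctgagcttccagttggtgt
Ifit3: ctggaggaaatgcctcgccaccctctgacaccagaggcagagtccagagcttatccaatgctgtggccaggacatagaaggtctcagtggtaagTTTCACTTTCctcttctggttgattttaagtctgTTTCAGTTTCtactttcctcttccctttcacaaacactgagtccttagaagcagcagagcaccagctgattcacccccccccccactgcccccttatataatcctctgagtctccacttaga
Oas3: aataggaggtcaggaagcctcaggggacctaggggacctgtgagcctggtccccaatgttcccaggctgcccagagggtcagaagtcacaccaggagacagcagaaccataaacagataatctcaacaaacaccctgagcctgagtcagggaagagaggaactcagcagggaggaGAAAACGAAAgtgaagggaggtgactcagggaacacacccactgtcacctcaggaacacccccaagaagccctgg
In Ifit1, Ifit3 and Oas3 the match nearest the start ends 75, 112 and 65 bases before it.

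Complement genes rose in 19 of 35 cases and fell in 0, with a median of 1.19, and 11 rose with slide as a block. C3, the hub of the cascade, measured 5.24, 5.20 and 5.42 in sham and 7.22, 7.06 and 7.32 at 72 h, a 3.77-fold rise (SE 0.29, limma adjusted p = 0.00168; adjusted p = 0.0792 with slide as a block). Cfp, properdin, which steadies the C3 convertase, rose 7.61-fold and C5ar1, the receptor for C5a on neutrophils and macrophages, by 3.89 on the log2 scale, while C1qa, made by macrophages, rose 2.39-fold and Cfb 2.37-fold. Acute phase genes rose in 15 of 26 cases and fell in 2, with a median of 2.32, or 1.70 with genes measured in 1 group alone set at their bound, and with slide as a block 8 rose and 0 fell. Saa3, the serum amyloid made outside the liver, measured 1.99, 1.89 and 2.09 in sham and 7.97, 7.51 and 8.91 at 72 h, a 70.5-fold rise (SE 0.47, limma adjusted p = 4.03e-05). Lcn2, lipocalin 2, which binds bacterial siderophores, rose 96.3-fold, from -1.42, -1.60 and -1.32 to 4.65, 4.08 and 6.69.

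Of the prostaglandin and leukotriene genes 14 of 38 rose and 2 fell, with a median of 0.71 (8 and 0 with slide as a block). Ptgs2, the inducible cyclooxygenase COX-2, measured -2.01, -1.84 and -2.07 in sham and 2.29, 1.87 and 1.92 at 72 h, a 16.0-fold rise (SE 0.35, limma adjusted p = 7.61e-05). Alox5ap, which serves leukotriene synthesis, rose 12.0-fold. Ptges, the prostaglandin E synthase downstream of COX-2, measured 5.06, 4.96 and 5.12 in sham and 4.81, 4.97 and 5.01 at 72 h with its brightest probe, but its 3 probes ranged from -0.12 to 2.18 and their mean was called higher (log2 difference 1.18), so no direction is given for it.

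On the luminal side, absorptive transport genes fell. Of 44 ion and water transport genes 16 fell and 0 rose, with a median of -0.66. Slc9a3, the apical sodium-proton exchanger NHE3, measured 3.71, 4.29 and 4.46 in sham and -2.12, -2.78 and 0.28 at 72 h. This was the largest fall of any gene well above background on all 6 arrays, 51.8-fold (SE 0.64, limma adjusted p = 0.00035), with its second probe at -3.76, and it was not called with slide as a block (log2 difference -5.16, adjusted p = 0.0559). Aqp8, a water channel of surface colonocytes, measured 8.52, 8.41 and 8.37 in sham and 5.41, 5.69 and 5.34 at 72 h, a 7.75-fold fall (SE 0.16, limma adjusted p = 8.42e-06; called with slide as a block, adjusted p = 0.000919). Car4, the apical carbonic anhydrase, fell 12.7-fold, from 3.42, 3.62 and 3.02 to 0.31, -0.60 and -0.66, and Slc26a3, the chloride-bicarbonate exchanger, 3.01-fold. Slc30a10, a manganese exporter, fell 19.1-fold. Outside that list Slc10a2, the apical bile acid transporter, fell 33.3-fold, from 3.07, 3.38 and 3.60 to -2.03, -2.31 and -0.77, and Trpv6 and S100g, the calcium channel and the calbindin of calcium uptake, 11-fold and 10.7-fold.

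**Figure D3:**
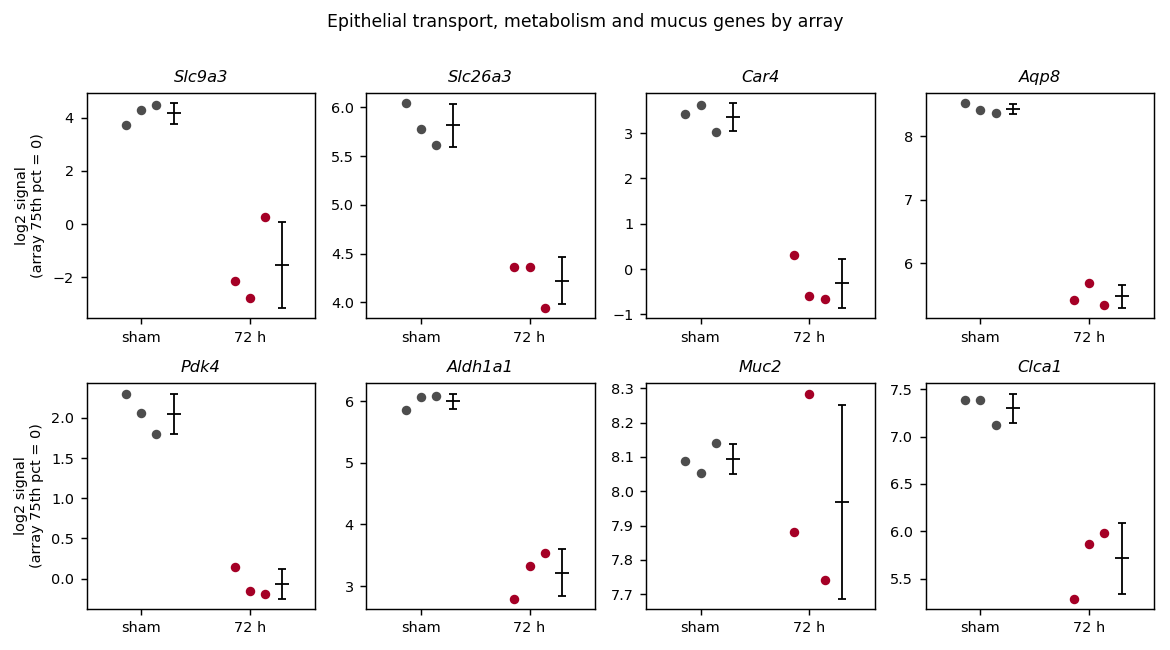
Log2 signal (y axis, the array's 75th percentile at 0) of 8 epithelial genes on the 3 sham and 3 72 h arrays, 1 point an array, with the group mean and SD as a black bar. The transport and metabolism genes Slc9a3, Slc26a3, Car4, Aqp8, Pdk4 and Aldh1a1 and the goblet cell gene Clca1 are lower at 72 h, and Muc2 overlaps between 7.74 and 8.28.

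Fuel and lipid metabolism genes of colonocytes, which burn butyrate, fell in 13 of 40 cases and rose in 1, with a median of -0.82. Pdk4, a kinase that turns pyruvate away from oxidation, measured 2.30, 2.06 and 1.79 in sham and 0.14, -0.15 and -0.19 at 72 h. The groups did not overlap, and the fall was 4.33-fold (SE 0.22, limma adjusted p = 0.000195; adjusted p = 0.043 with slide as a block). Ppara, the nuclear receptor that governs fatty acid oxidation, fell 2.17-fold (not called without sham replicate 2, log2 difference -0.98). Cpt1a and Acadm, of mitochondrial fatty acid oxidation, were not called, with log2 differences of -0.56 and -0.40. Angptl4, an inhibitor of lipoprotein lipase that hypoxia and PPARs induce, was the member that rose, 11.7-fold. Of 52 xenobiotic metabolism genes 20 fell and 1 rose, with a median of -0.83. Aldh1a1, a retinal dehydrogenase, measured 5.86, 6.07 and 6.08 in sham and 2.80, 3.32 and 3.53 at 72 h, a 6.88-fold fall (SE 0.20, limma adjusted p = 2.63e-05). Cyp2c55, a colonic cytochrome P450, fell 2.93-fold, Abcb1a, the efflux pump P-glycoprotein, 3.37-fold, and outside the list the ester hydrolases Ces1g and Aadac fell 11.6-fold and 10.7-fold. Cyp1a1, the classic target of the aryl hydrocarbon receptor, was at least 4.37-fold lower. Cyp1b1, also such a target but a gene of fibroblasts and other stromal cells, was the exception: it was well above background on 0 of 3 sham arrays and measured 2.41, 1.33 and 0.73 at 72 h, at least 88.7-fold higher (limma adjusted p = 5.27e-05). The slide-blocked fit called 2 of the 44 transport genes, 1 of the 40 fuel genes and 6 of the 52 xenobiotic genes lower.

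Mucus genes of the epithelium changed in both directions, and its junction and keratin genes were called at about the share of all genes. Muc2, the gel-forming mucin of goblet cells, measured 8.09, 8.05 and 8.14 in sham and 7.88, 8.28 and 7.74 at 72 h (log2 difference -0.12, SE 0.15, limma adjusted p = 0.598). Clca1, a goblet cell protease of the mucus layer, fell 3.00-fold and Muc3, a membrane mucin of absorptive cells, 3.45-fold, and Zg16, a lectin of mucus, was not called at a 1.75-fold difference. Of 42 goblet cell genes 4 rose (9.52%) and 5 fell (11.9%), beside 4.55% and 4.3% of all genes. That balance turned to 5 and 4 with the median as the scale and to 2 and 1 with slide as a block. In the 42 junction and keratin genes 1 rose, Cldn2, a claudin of leaky epithelia (2.58-fold), and 2 fell, among them Cldn8 (2.65-fold), a balance of 1 and 0 with the median as the scale and of 0 and 0 with slide as a block. Cldn2 was not called without sham replicate 1 or 72 h replicate 2, nor Cldn8 without any 1 array other than 72 h replicate 3. Cdh1, E-cadherin, measured 4.15, 4.41 and 4.26 in sham and 3.54, 3.96 and 4.28 at 72 h, and it, Cldn3 and Cldn7 were not called.

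Members of the epithelial defence list rose in 11 of 38 cases and fell in 3, counts that were 2 and 1 with slide as a block. The 3 that fell were Defb1, S100g, given above as a gene of calcium uptake, and Sprr1a, given below. Nos2, the inducible nitric oxide synthase of macrophages and epithelium, measured -1.29, -1.22 and -0.92 in sham and 2.47, 1.59 and 4.08 at 72 h, a 14.5-fold rise (SE 0.51, limma adjusted p = 0.000822). Pla2g2a, an antibacterial phospholipase, rose 7.72-fold. Reg3g, an antibacterial lectin of enterocytes, overlapped between -0.56, 3.28 and 2.80 in sham and 3.47, 4.66 and 2.82 at 72 h, and Duox2, the epithelial peroxide source, was not called at a 1.79-fold difference (called without 72 h replicate 1). Among 44 genes of regenerating epithelium 20 rose and 3 fell, with a median of 0.75 (12 and 0 with slide as a block). Many of these genes are also made by other cells of a wound, and Spp1, Il33, Il1rn and Plaur, among those that rose, are described above in other lists. Anxa1, annexin A1, rose 3.65-fold, from 3.17, 3.39 and 4.0 to 5.44, 5.19 and 5.53, although its 4 probes ranged from -0.17 to 1.87. Sprr1a, a cornified envelope protein induced in injured epithelium, went the other way, from 3.38, 3.75 and 4.96 to 1.71, 1.89 and 1.21, a 5.38-fold fall (SE 0.35, limma adjusted p = 0.00126).

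In the crypt and Wnt list, 8 of 47 members rose and 3 fell, with a median of 0.06, and 4 rose when any 1 of the 3 sham arrays was left out. The count that fell was 0 without sham replicate 2 and 1 without sham replicate 1 or 72 h replicate 1, and with slide as a block 2 rose and 1 fell. The leading rises were secreted or membrane Wnt modulators of the stroma: Sfrp2 measured -1.41, -1.43 and -1.57 in sham and 3.08, 1.74 and -0.98 at 72 h, a 6.72-fold rise with a standard error of 0.82 (limma adjusted p = 0.0409), not called when any 1 array other than 72 h replicate 3 was left out, and Apcdd1 and Sfrp1 rose 4.13-fold and 3.95-fold. Ascl2, the transcription factor of crypt stem cells, fell 2.05-fold (limma adjusted p = 0.0497), a call lost without any 1 array other than 72 h replicate 3, and Axin2, a general Wnt target, was not called. Of 41 enteroendocrine and tuft cell genes 5 rose and 2 fell (1 and 1 with slide as a block). Chga, Pyy and Gcg, of enteroendocrine cells, were not called, with log2 differences of -0.83, -0.16 and -0.53, and Dclk1, of tuft cells and also of neurons, rose 2.51-fold with 5 probes between -0.12 and 1.33, and was not called without sham replicate 1, sham replicate 2 or 72 h replicate 1.

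None of 55 cell cycle and mitosis genes was called in either direction in limma, and the median was -0.30. At an unadjusted p under 0.05, 4 members were lower and 0 higher, and the t-test without pairing, treat and an adjusted p with no fold threshold called 0 as well. Mki67, the proliferation antigen, measured 3.81, 4.38 and 4.76 in sham and 3.64, 3.50 and 3.79 at 72 h, Top2a, topoisomerase II alpha, 2.18, 2.76 and 3.34 against 2.62, 2.38 and 2.63, and Ccnb1, cyclin B1, 1.72, 2.30 and 2.75 against 1.86, 1.56 and 1.87. In each of these 3 genes sham replicate 1 was the lowest and sham replicate 3 the highest of the sham arrays. Of 36 EGF, FGF, HGF and PDGF growth factor genes 5 rose and 1 fell, and 3 rose without sham replicate 2 or 72 h replicate 1, while slide as a block left 1 higher and 0 lower. Igf1, made by fibroblasts and macrophages, rose 4.47-fold, from 0.26, 0.34 and 0.61 to 3.48, 2.57 and 1.63, and Ereg, epiregulin, 2.72-fold, a call lost without sham replicate 1, sham replicate 2 or 72 h replicate 3. Tgfa, an epithelial ligand of the EGF receptor, fell 2.44-fold, and Hbegf was not called (log2 difference -0.15).

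Of 43 endothelial genes 12 rose and 0 fell, with a median of 0.57, and 6 rose with slide as a block. Angptl4, given above with the fuel genes, is also on this list. Of the adhesion molecules by which leukocytes roll, Selp, P-selectin, measured -3.07, -2.88 and -2.68 in sham and 0.94, 0.31 and 0.08 at 72 h, a 9.97-fold rise (SE 0.26, limma adjusted p = 4.38e-05), and Sele, E-selectin, was at least 2.08-fold higher. Pecam1, a general marker of endothelium, and Esm1 and Angpt2, of sprouting tips, were not called, with log2 differences of 0.45, -0.49 and -0.21. In the 47 neuron, glia and pacemaker genes 4 rose and 3 fell. The neuropeptides Npy, Gal and Vip rose 4.68-fold, 4.01-fold and 2.74-fold, Gal from 0.80, 0.67 and 0.70 to 1.74, 2.62 and 3.81. Elavl4 and Uchl1, of neurons, and Kit, of pacemaker cells, were not called. Blocking on slide, none of Npy, Gal and Vip was called, at adjusted p = 0.122, 0.536 and 0.464, and Gal was not called without sham replicate 2. The list's balance was 0 higher and 2 lower in that fit.

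Fat cell genes were scattered, with 3 of 39 higher and 5 lower, a balance that turned to 4 and 1 with the median as the scale and to 4 and 2 with normexp, and with slide as a block was 1 and 1. Without sham replicate 2 the count lower was 2, and without 72 h replicate 3 the count higher was 7. Fabp4, of fat cells and macrophages, measured 3.45, 4.07 and 2.89 in sham and 6.79, 5.94 and 2.61 at 72 h, so that 72 h replicate 3 stood below sham, and it was not called with all arrays but was without that array (log2 difference 2.89). G0s2, an inhibitor of fat breakdown that neutrophils also express, rose 15.9-fold. Among 24 clock genes 3 rose and 4 fell, Per2 and the repressor Nfil3 2.75-fold and 7.35-fold higher and Arntl (BMAL1), Nr1d1 and Usp2 2.21-fold, 2.67-fold and 4.42-fold lower. The balance of the clock genes was 3 and 2 with normexp and 3 and 1 with slide as a block, Arntl was not called without 72 h replicate 2, and Nr1d1 was not called without sham replicate 1, sham replicate 2, 72 h replicate 1 or 72 h replicate 3. The time of day of sampling is not given in the sources used here, and its part in these values was not tested.

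The share of members called higher was 4.76% in heat shock genes, about that of all genes (4.55%). It was 9.09% in unfolded protein genes, 19.4% in hypoxia and glycolysis genes and 20% in metallothionein and oxidative stress genes. Heat shock genes had 1 of 21 members called, the collagen chaperone Serpinh1 (not called with slide as a block), and Hspa1a, the inducible HSP70, measured 0.98, 1.14 and 1.45 in sham and 2.33, 1.11 and 2.08 at 72 h. Of 44 genes of the unfolded protein response 4 rose and 0 fell, and 1 rose with slide as a block. Hspa5, Xbp1, Ddit3 and Atf4, its chaperone and transcription factors, had log2 differences of 0.64, 0.31, 0.26 and 0.44 and were not called, Hspa5 being called without sham replicate 3 (1.04), and Slc7a11, a cystine importer, rose 7.99-fold from a signal well above background on 2 of 3 sham arrays. Hypoxia and glycolysis genes rose in 7 of 36 cases and fell in 1 (5 and 0 with slide as a block). Hif1a rose 2.32-fold, from 2.88, 3.12 and 3.54 to 4.52, 4.16 and 4.50, and Slc16a3, the lactate exporter, 7.88-fold, while Ldha was not called. Of 30 metallothionein and oxidative stress genes 6 rose and 0 fell, with a median of -0.17, and 1 rose with slide as a block. Hmox1, heme oxygenase 1, which breaks down heme from lost red cells, measured 0.10, 0.35 and 0.72 in sham and 4.19, 3.80 and 4.46 at 72 h, a 13.6-fold rise (SE 0.23, limma adjusted p = 1.22e-05), and Mt2, a metallothionein, was not called at a 1.78-fold difference.

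How the 72 h state differs from the earlier ones was tested directly, since the comparisons of the 3 times with sham share the sham arrays. Between 72 h and 12 h 4.33% of genes were called higher at 72 h and 3.19% lower, and between 72 h and 3 h 6.19% and 5.51%. Of the 11 fibrillar collagens 9 were higher at 72 h than at 12 h and 9 higher than at 3 h, and the list medians against sham stood at -0.67, -1.02 and 2.48 in the order of 3 h, then 12 h, then 72 h. Col1a1 was 4.63 log2 units higher at 72 h than at 12 h (limma adjusted p = 4.37e-05). Of the 34 collagen processing genes 23 were higher than at 12 h and 0 lower. Cthrc1 was 5.67 log2 units above 12 h (limma adjusted p = 0.000177), Wt1 4.20 (limma adjusted p = 0.00128) and Trem2 4.70 (limma adjusted p = 5.03e-05), and the log2 differences of these 3 genes from sham at 12 h were -0.64, 0.20 and -0.93.

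Of the 46 neutrophil genes 3 were higher and 7 lower at 72 h than at 12 h, and 19 were higher and 2 lower than at 3 h. S100a8 and S100a9 were not called between 72 h and 12 h (log2 differences -1.37 and -0.78), whereas Ly6g, which stood 3.61 and 3.65 above sham at 3 h and 12 h, was lower at 72 h than at 12 h (log2 difference -3.73, limma adjusted p = 0.0019). Il6 differed by 0.45 from 12 h and by -0.41 from 3 h and was called in neither. Chemokines were lower at 72 h than at 12 h in 9 of 37 cases and higher in 3, among them Ccl2 (log2 difference -1.55, limma adjusted p = 0.012). Monocyte and macrophage genes were higher than at 12 h in 13 of 37 cases and lower in 5, and higher than at 3 h in 21.

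Type I interferon genes were lower at 72 h than at both earlier times. Of 32 members 20 were lower at 72 h than at 12 h and 20 lower than at 3 h, with 0 higher in either, and the list medians against sham stood at 0.69, 0.46 and -1.0 in order of time. Ifit1 was lower at 72 h than at 3 h (log2 difference -3.87, limma adjusted p = 0.000242) and than at 12 h (log2 difference -2.68, limma adjusted p = 0.00295). Absorptive transport genes were lower at 72 h than at 3 h in 18 of 44 cases and than at 12 h in 6, with Slc9a3, which stood 0.27 above sham at 12 h, lower at 72 h than at 12 h (log2 difference -5.96, limma adjusted p = 0.000423). Of the smooth muscle genes 8 of 50 were higher and 1 lower at 72 h than at 12 h, and their medians against sham stood at -0.81, -1.25 and -0.89 in order of time. Heat shock genes were lower at 72 h than at 3 h in 8 of 21 cases and higher in 1. Hspa1a stood 6.20 above sham at 3 h and 3.71 at 12 h, and was lower at 72 h than at 3 h (log2 difference -5.55, limma adjusted p = 3.1e-05). Over all genes 39 were called lower than sham at 12 h and higher than sham at 72 h with the difference between the times called too, and 12 the other way, where 12 h against sham called 4.1% of genes higher and 4.96% lower. At 12 h 1 of the 3 arrays shared the slide of the 72 h arrays, and at 3 h none did.

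**Figure D4:**
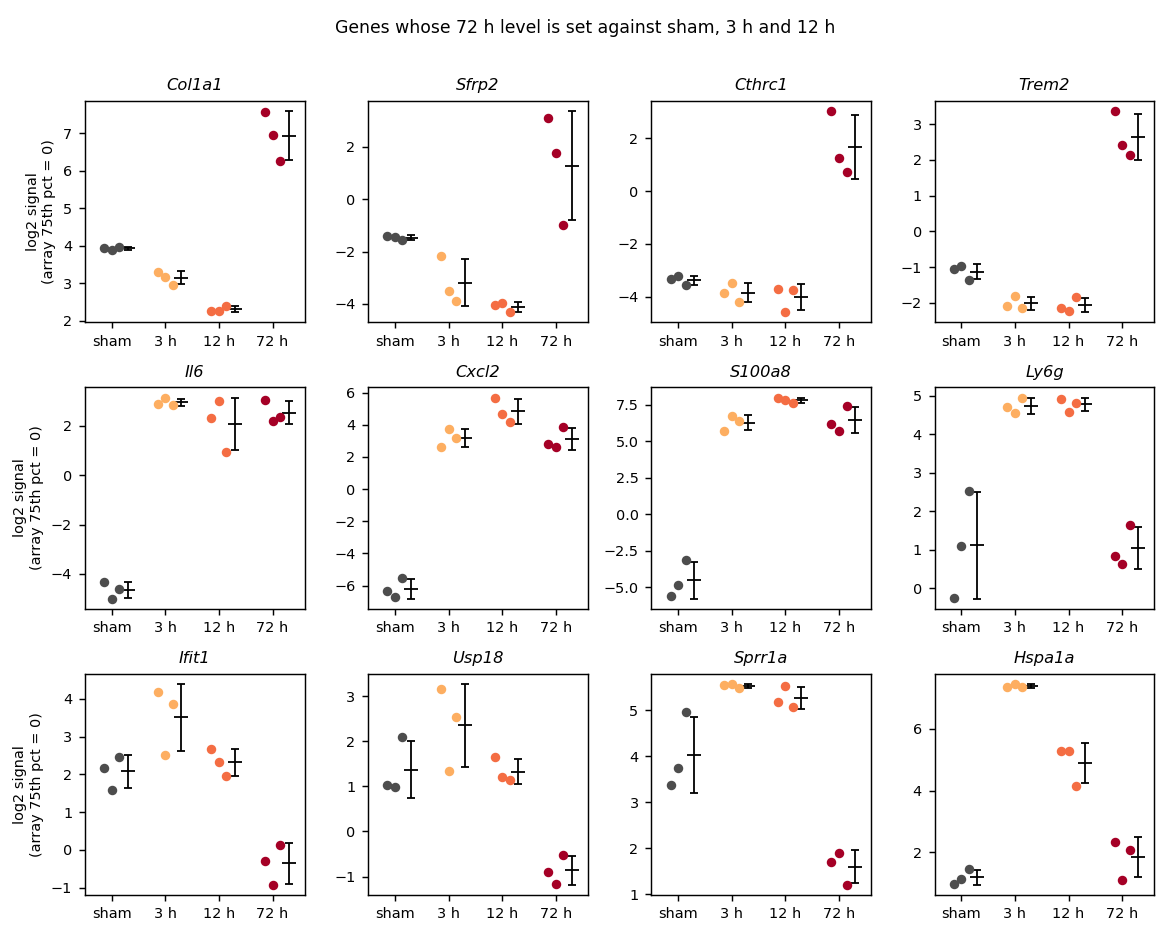
Log2 signal (y axis, the array's 75th percentile at 0) of 12 genes in sham, 3 h, 12 h and 72 h arrays (x axis, 3 arrays a group, 1 point an array, group mean and SD as a black bar). Col1a1, Sfrp2, Cthrc1 and Trem2 are highest at 72 h, Ifit1, Usp18 and Sprr1a lowest at 72 h, Il6, Cxcl2 and S100a8 high at all 3 times, and Ly6g and Hspa1a back near sham.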

How the data were processed

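RNA of 12 cecum samples was hybridised to 1-colour Agilent arrays, 1 sample an array. The authors deposited scanner output with the processed signal intensity of each spot (Feature Extraction 11.5.1.1, probe coordinates on mm9), and a table of log2 values that the authors scaled to the 75th percentile and centred on each probe's median, which was used as an alternative only. The centring was read from the values, and the methods state that no baseline was transformed. According to the methods, calls were made in GeneSpring for genes over 2-fold different at a false discovery rate under 0.05.

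Here control spots and outlier spots were left out, spots of a probe averaged and log2 intensities set to each array's 75th percentile. All 4 groups were fitted together in limma 3.58.1 (R 4.3.3), with Benjamini-Hochberg adjustment over all 56605 probes. Each of the 37074 genes was then read from its brightest probe. Calls needed a difference over 2-fold at an adjusted p under 0.05. P-values rest on a spread pooled over the 3 samples of each of the 4 groups, so the 3 h and 12 h arrays enter it. The number of arrays limits the precision. In data simulated for 72 h against sham, with 200 of 37074 genes changed, 67.2%, 86.6% and 97% of changes of 1.5, 2.5 and 4 log2 units were recovered and 6 unchanged genes were called. The simulated noise was independent between genes and held no slide effect, and the adjustment was over 37074 genes. The simulation therefore does not measure how many calls on the real arrays are false.

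The comparison and the 46 gene lists were chosen with earlier results of these data known, and 1527 of 1536 listed symbols were found. Genes named are key members of a list, its 3 largest rises and falls, members called against their list, the 15 largest separated rises and falls of all, sex-linked genes and those the study measured by qRT-PCR, and not every gene so allowed is named. Results of a few genes are not reported here. Alternatives covered scaling, background correction, filters, slide and replicate blocks, tests and each array left out.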

Additional observations from a re-analysis of the deposited data

Results flagged for a closer look

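The results below differed in direction between 72 h and an earlier time, each by limma's test of the difference between the times. The 12 h and 72 h comparisons with sham share the sham arrays. Of the 11 fibrillar collagen genes 3 are given here, which stood below sham at 12 h and above it at 72 h. Col1a1 differed by 4.63 log2 units between 72 h and 12 h (adjusted p = 4.37e-05; -1.63 earlier and 3.00 later), Col1a2 by 3.85 (adjusted p = 0.000116; -1.83 and 2.02) and Col3a1 by 3.29 (adjusted p = 0.000157; -1.21 and 2.08). Sfrp2, a secreted Wnt modulator of fibroblasts, differed by 5.38 (adjusted p = 0.00217; -2.64 and 2.75). Its rise over sham at 72 h was not called when any array other than 72 h replicate 3 was left out. The rises of Col1a2 and Col3a1 over sham were not called with slide as a block.

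The reverse course was seen in Sprr1a, which differed by -3.66 between 72 h and 12 h (adjusted p = 0.000255; 1.23 and -2.43) and by -3.92 between 72 h and 3 h (adjusted p = 8.68e-05; 1.49 at 3 h). Ifit1 differed by -3.87 between 72 h and 3 h (adjusted p = 0.000242), from 1.44 against sham to -2.44. Arrays of 3 h and 2 of the 3 arrays of 12 h lay on another slide than the 72 h arrays. The part of the slide in the differences of this section was not tested.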

How the results depend on the processing

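Of 3282 genes called, 1687 higher and 1595 lower, counts within 1.5 times of these came from 75th percentile, median and quantile scalings, the authors' table, the filters, the fit to 6 arrays, eBayes with trend and the mean of a gene's probes. Normexp called 1258 genes, 870 higher and 388 lower. Slide as a block called 1152, 591 and 561. A paired t-test by replicate number called 0, 0 and 0 after adjustment, with 8246 genes at an unadjusted p under 0.05 and 2627 of these with a fold above 2. The study names a paired t-test in its general statistics, and its array methods do not name it. The unpaired t-test called 1505, 838 and 667, treat 534, 433 and 101, and an adjusted p with no fold threshold 7679, 2954 and 4725. Leaving out 1 array gave 2740 to 3294 genes, 1405 to 1783 higher and 1253 to 1721 lower. Replicate numbers did not pair the samples (same-number correlations of 0.061, 0.013 and 0.087), and the replicate block called 3160 genes, 3093 of them shared. A 75th percentile over spots, chosen after seeing the data, called 3300.

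None of 182 called genes named or considered reversed under any alternative run, and 110 kept their call with slide as a block, 156 with normexp, 173 with the median as the scale and 175 after quantile normalization. The following uncalled genes changed sign, and the cause was not tested. Ptges stood at 0.029 after quantile normalization, 0.012 with the median scale, 0.031 with slide as a block and 1.18 as the mean of its probes. Muc2 was 0.14 after quantile normalization, 0.0066 with the median scale and 0.14 with slide as a block. Ly6g was 0.053 with the median scale and between -0.77 and 0.62 with 1 array left out, above 0 without sham replicate 3 or 72 h replicate 1 or 2. Msln was -1.33 with slide as a block and between -0.21 and 0.25 with 1 array left out, below 0 without sham replicate 2 or 72 h replicate 1. Cd8a was 0.025 with slide as a block, and Top2a between -0.51 and 0.074 with 1 array left out, above 0 without sham replicate 3. Signal over background limits what can be said of the 346 genes that rose from no sham array well above background and the 572 that fell to none at 72 h.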

Other observations

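Some further groups of genes were put together after their values were seen and carry no test as groups. The shares of all genes to set beside each group's counts are 4.55% called higher and 4.3% lower. With slide as a block they are 1.59% and 1.51%. S100g, Abcc3, Fgf15, Igf2, Mest, Nnat, Ckm and Des are counted here and in the lists above. Of 18 genes of bile acid, calcium and phosphate uptake 13 were called lower at 72 h and 0 higher, with a median log2 difference of -1.81, and 7 were called lower with slide as a block. Beside Slc10a2, Trpv6 and S100g these included Slc20a1, a phosphate transporter (log2 difference -3.27), Slc51b and Slc51a, the basolateral bile acid exporter subunits (-3.09 and -1.98), and Cyp24a1, which degrades vitamin D, at least 7.88-fold lower from scattered sham values of -2.04, -0.13 and -4.31. Slc51b, Slc51a and Cyp24a1 were not called with slide as a block (adjusted p = 0.134, 0.13 and 0.183). Fabp6, the ileal bile acid binding protein, was not called (-0.28).

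Of 20 imprinted genes, many of them growth regulators of the fetus, 5 were called higher and 0 lower, with a median of 0.45. H19, a long noncoding RNA, led them (log2 difference 4.79), although sham replicate 3 stood at -1.79 against -3.85 and -3.82 in the other sham arrays, followed by Mest (3.18), Slc38a4 (2.97), Grb10 (2.54) and Rian (2.45). The 4 probes of Mest ranged from -0.15 to 3.18 and the 3 of Grb10 from 0.71 to 2.54. Igf2, the neighbour of H19, was not called (-0.93), and 0 of the 20 were called with slide as a block.

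Genes named for striated muscle and its energy metabolism were lower in 9 of 21 cases and higher in 1, with a median of -0.55, and 8 were called lower with slide as a block. Besides Ckm they included Eno3, the muscle enolase (log2 difference -2.80), Tnni1, the slow troponin I (-2.55), and Cox7a1 (-2.29), while Cox6a2 was the member that rose (1.69).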
